A study of Mus musculus with 26 samples.

Results

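The 10 Paneth cell and antimicrobial genes Defa5, Defa20, Defa24, Defa-rs7, Lyz1, Mmp7, Reg3a, Reg3b, Reg3g and Pla2g2a were followed through 3 ages of mouse intestinal epithelium. They were taken by name from a table of 26310 lines. All 10 lines had a value in each of the 26 libraries, as did 25146 lines in all. The study profiled, by 3' RNA-seq (which reads the ends of transcripts), 13 groups of sorted cells with 2 libraries each: intestinal epithelium, photoreceptor precursors of the retina, splenic B cells and their descendants in culture, and germ cell-like cells. The retina was taken at P0, P4, P6 and P10 and sorted as GFP+ (P0), GFP+ CD73- (P4) or CD73+ (P4, P6 and P10). Resting B cells were B220/CD45R+ cells from the spleen at 8 to 10 weeks of age, and blasts (GFP- CD138-), pre-plasmablasts (GFP+ CD138-) and plasmablasts (GFP+ CD138+) were made from such cells by 3 days with IL-4 (2 ng/mL) and LPS (10 ng/mL). The germ cell-like cells were day 2 PGCLCs of a C57BL/6+129 line with Blimp1-mVenus, stella-ECFP and Rosa26-rtTA, induced from stem cells through EpiLCs with BMP4, BMP8A, SCF, LIF and EGF and sorted as BV+. The title of the series names the transcription factor BLIMP1 as its subject.

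Every library but those of PGCLCs came from C57BL/6 mice homozygous for EGFP-BLIMP1, a knock-in that fuses the fluorescent protein to the N-terminal end of the factor, so no group without the reporter entered these comparisons. The tissue was the small intestine from the lower duodenum to the ileocecal junction. Embryonic cells (E16.5) were sorted as GFP+ EPCAM+. Per the labels' protocols, those of postnatal days 3 (P3) and 14 (P14) were sorted as BLIMP1-negative EPCAM+, while their sort label gives EPCAM+ alone, so whether reporter-positive cells were left out at these ages rests on the protocol. Age and gate therefore changed together between E16.5 and P3, and cannot be told apart; P3 and P14 shared a gate. Each group had n = 2. The labels do not say that replicates came from separate animals, and the p-values then reflect no more than library-to-library spread, which may be technical.

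The 6 intestinal libraries held between 2.23 and 6.04 M reads. The deposited values are in RPM, reads scaled to the depth of the library, and 1 read was worth 0.166 to 0.448 RPM. Summed RPM of 9 epithelial markers was 4122 to 4289 at E16.5, 6033 to 6261 at P3 and 7116 to 7508 at P14. All 10 genes passed the filter of at least 5 RPM in at least 2 of the 6 libraries, but Defa5, Reg3a and Pla2g2a passed it only through P14. That these 3 were higher at P14 than before was thus fixed by the filter, and their calls for P14 are a description. Defa20, Defa-rs7, Lyz1 and Mmp7 reached 5 RPM in 0 E16.5 libraries and in both libraries of P3 and of P14. They passed only through the postnatal ages, so their rise from E16.5 was likewise tied to the filter. Their calls against E16.5 are a description too.

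Paneth cells sit at the base of small intestinal crypts and secrete granules of antimicrobial proteins. In mice they are known to appear as crypts form after birth. Alpha-defensins (cryptdins in mice) are short cationic peptides that disrupt bacterial membranes, and in mice matrilysin, the product of Mmp7, cuts their proforms into active peptides. Lyz1 encodes the Paneth cell lysozyme, Pla2g2a a secreted phospholipase A2 that attacks bacterial membrane lipids, and the Reg3 genes encode secreted C-type lectins made by enterocytes and Paneth cells, which bind bacterial cell walls and are induced by microbes and interleukin 22.

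Sequences upstream of 4 genes are shown because the defensins and the Reg3 lectins followed different courses over the 3 ages, and each pair shared much of its sequence. They are the 250 bases before the gene start, from RefSeq GRCm38.p6, 5′ to 3′ on the gene's strand. Defa20 was read at chr8:21509008-21509257 (+), Defa-rs7, which RefSeq names Defa31, at chr8:21191323-21191572 (+), Reg3b at chr6:78370635-78370884 (+) and Reg3g at chr6:78468875-78469124 (−). Capitals mark CTTTGAT on either strand (ATCAAAG on the other), the core sequence bound by TCF/LEF factors of the Wnt pathway.
Defa20: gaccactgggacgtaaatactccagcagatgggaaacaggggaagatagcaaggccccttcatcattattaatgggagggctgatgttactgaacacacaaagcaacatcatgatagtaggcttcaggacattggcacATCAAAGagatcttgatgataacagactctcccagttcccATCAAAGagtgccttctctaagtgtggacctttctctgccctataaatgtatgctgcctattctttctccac
Defa-rs7: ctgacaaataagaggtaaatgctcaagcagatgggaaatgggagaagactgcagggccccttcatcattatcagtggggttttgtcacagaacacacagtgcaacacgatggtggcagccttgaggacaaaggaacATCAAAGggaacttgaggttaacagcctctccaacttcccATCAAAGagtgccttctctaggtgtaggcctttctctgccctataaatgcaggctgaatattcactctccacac
Reg3b: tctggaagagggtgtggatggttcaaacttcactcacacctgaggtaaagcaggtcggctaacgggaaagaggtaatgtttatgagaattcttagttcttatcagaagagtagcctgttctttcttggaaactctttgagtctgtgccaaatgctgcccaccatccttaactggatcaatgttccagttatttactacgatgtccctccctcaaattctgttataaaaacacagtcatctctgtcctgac
Reg3g: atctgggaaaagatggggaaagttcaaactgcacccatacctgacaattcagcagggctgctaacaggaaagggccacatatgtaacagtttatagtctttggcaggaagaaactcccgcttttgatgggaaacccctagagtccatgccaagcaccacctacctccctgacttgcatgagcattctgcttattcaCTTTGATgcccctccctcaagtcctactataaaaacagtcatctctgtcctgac

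The windows of Defa20 and Defa-rs7 were 78.3% identical, and both held CTTTGAT at 2 places, 112 and 72 bases before the start of Defa20 and 114 and 74 bases before that of Defa-rs7. Those of Reg3b and Reg3g were 68.9% identical; the Reg3g window held the motif once, 54 bases before the start, and the Reg3b window did not hold these letters. RefSeq gave a window for 7 of the 10 genes. Counted over 300 bases each (250 before the start and 50 after), 5 of the 7 held CTTTGAT on either strand, beside 3.73% of 32851 windows of the same length. The others were Reg3a, with 1 match 7 bases before its start, and Mmp7, with 1 match 5 bases after it. The windows of Defa20 and Defa-rs7, near copies, are not separate cases. In the same 7 windows, TATAAA was found in 5, beside 13.6% of all windows. TTCNNNGAA, with N for any base, was found in 1, beside 8.30%. All these matches are letters in a window and show no binding.

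The 2 steps, from E16.5 to P3 and from P3 to P14, were tested with limma on log2(RPM + 1), with Benjamini-Hochberg adjustment over 10481 genes. A gene was called when the adjusted p was under 0.05 and the log2 fold change at least 1 in size. From E16.5 to P3, 6 of the 10 genes rose and 2 fell, where 12.6% of all genes tested rose and 8.20% fell (20.8% either way). Of the 6 that rose, only Defa24 reached 5 RPM in an E16.5 library. From P3 to P14, 9 rose, among them the 3 that passed the filter only through P14, and 0 fell, where 1.99% of all genes rose and 2.40% fell (4.40% either way). Between E16.5 and P14, 8 rose and 1 fell, where 11.8% rose and 10.4% fell (22.3% either way). Of those 8, again only Defa24 reached 5 RPM in an E16.5 library. The median log2 fold change of the 10 genes was 2.04 in the first step, 2.97 in the second and 5.76 over both, against 0.11, -0.08 and 0.02 for all genes tested. With quantile normalization the first step had 981 genes that rose and 996 that fell, in place of 1321 and 859. In these bulk samples, fewer cells of a type and less RNA per cell cannot be told apart.

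**Figure D1:**
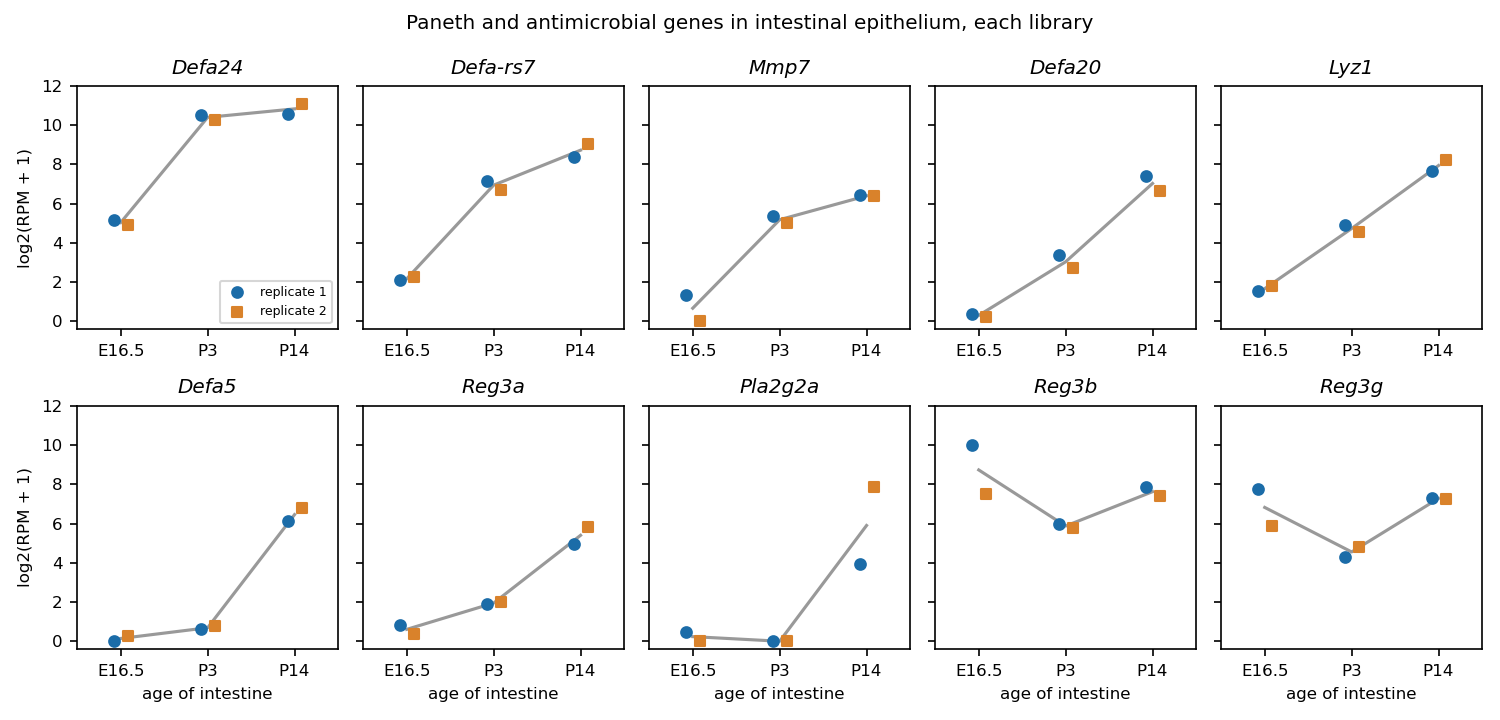
Level of each of the 10 genes in every intestinal library on the log2(RPM + 1) scale, by age; circles are replicate 1, squares replicate 2, and lines join the group means. Defa24, Defa-rs7 and Mmp7 made most of their rise by P3, Defa5, Reg3a and Pla2g2a by P14, and Reg3b and Reg3g were lowest at P3, with the E16.5 replicates of both far apart.

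Among the alpha-defensins, Defa24 (Entrez gene 503491, chr8:21734494-21735471) was the earliest. It stood at 34.4 and 29.6 RPM at E16.5, at 1486 and 1230 RPM at P3 and at 1511 and 2204 RPM at P14. The embryonic values rested on 89.5 and 96.0 reads, well clear of zero. Both P3 libraries lay far above both E16.5 libraries, while the P14 libraries lay only a little above those of P3. Defa24 rose by a log2 fold change of 5.36 ± 0.16 (SE, limma adjusted p = 1.4e-17) in the first step. In the second the difference was 0.43 ± 0.16 (limma adjusted p = 0.11), which was not called.

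Defa-rs7 (cryptdin-related sequence 7, Entrez gene 13226, chr8:21191573-21192550) was at 3.30 and 3.73 RPM at E16.5, 144 and 104 RPM at P3, and 335 and 534 RPM at P14. The 3 ages did not overlap. It rose by 4.77 ± 0.22 on the log2 scale by P3 (limma adjusted p = 3.5e-14) and by a further 1.78 ± 0.22 by P14 (limma adjusted p = 7.0e-06).

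Defa20 (Entrez gene 68009, chr8:21509258-21510237) was listed at 0.290 and 0.185 RPM at E16.5, less than 1 read in each library. It reached 9.40 and 5.49 RPM at P3 and 171 and 98.7 RPM at P14, again with no overlap between ages. The log2 differences were 2.73 ± 0.37 (limma adjusted p = 2.8e-06) and 3.99 ± 0.37 (limma adjusted p = 7.3e-08). The first of these depends on the pseudocount of 1 RPM, since the embryonic level was under that of 1 read.

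Defa5 (Entrez gene 13239, chr8:21297394-21298375) came last. It was at 0 and 0.216 RPM at E16.5 and at 0.527 and 0.699 RPM at P3, all below 3 reads, so that no fold is given for that step (limma adjusted p = 0.36). At P14 it stood at 69.0 and 109 RPM, from 226.2 and 658.8 reads. The rise from P3 was called (limma adjusted p = 4.8e-09), with a log2 difference of 5.77 ± 0.44 on the log2(RPM + 1) scale.

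These 4 are part of a cluster of near copies on chromosome 8, and reads of one may be counted in another. Over the last 100 bases of the GENCODE vM21 transcripts, where 3' reads fall, Defa-rs7 was 100.0% identical to Defa23, Defa20 was 98.0% identical to Defa2, Defa24 was 94.1% identical to Defa23 and Defa5 was 94.0% identical to Defa22. GENCODE vM21 has 39 genes named Defa, and the table has 13 lines with names that start so. Whether lines under other names are further copies was not tested. The values themselves show shared reads: in units of 1 read, Defa5, Defa20 and Defa-rs7 had a whole number in 0 of the intestinal libraries in which they were above 0, and Defa24 in 1 of 6, within 0.02 of a read. Defa23 read 143 and 103 RPM at P3 and 334 and 532 RPM at P14, nearly the values of Defa-rs7. The levels of single defensins are therefore uncertain, and Defa-rs7 cannot be told apart from Defa23 by its end.

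All 13 Defa genes of the table, the 4 included, were tested. In the first step 12 rose and 0 fell, beside 12.6% and 8.20% of all genes tested, with a median log2 fold change of 2.73. The exception was Defa5. In the second step 11 rose and 0 fell, beside 1.99% and 2.40% of all genes, with a median of 2.04. Defa24 and Defa25 were not called in it. Over both steps 13 rose, beside 11.8% of all genes. Only Defa24, Defa17 and Defa3 reached 5 RPM in an E16.5 library, so the rises of the others from E16.5 were tied to the filter. Defa5 passed it only through P14. As these genes may share reads, the counts are not of separate observations. The 13 were also added to 1 value, which does not depend on how reads were divided among them. Reads shared with genes outside the 13 could still change it. The sum came to 72.7 and 67.2 RPM at E16.5, 2532 and 1985 RPM at P3, and 4488 and 6044 RPM at P14. This sum, added after seeing the data, rose by 4.98 ± 0.15 (limma adjusted p = 1.6e-17) and then by 1.22 ± 0.15 (limma adjusted p = 8.7e-06) on the log2 scale. The line of Defa24 held 47.4% and 44.1% of the sum at E16.5, 58.7% and 62.0% at P3, and 33.7% and 36.5% at P14.

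**Figure D2:**
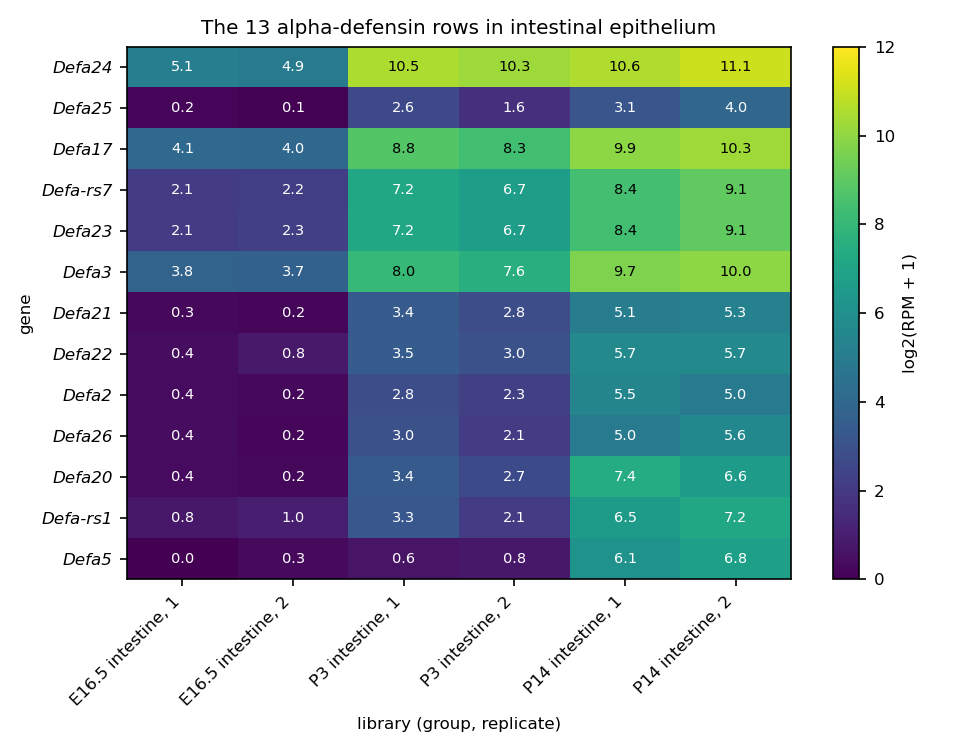
Level of the 13 alpha-defensin genes of the table with names that start with Defa (rows) in each of the 6 intestinal libraries (columns, group and replicate), as log2(RPM + 1) in colour and number. Defa24, Defa17 and Defa3 were at 12.3 RPM or more in both E16.5 libraries, while Defa5 stayed under 1 RPM until P14.

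Mmp7 (Entrez gene 17393, chr9:7692090-7699585), the protease that activates the defensins in mice, was at 1.54 RPM and listed at 0 in the E16.5 libraries. It stood at 39.9 and 31.3 RPM at P3 and at 85.1 and 81.8 RPM at P14. All P3 values lay above those of E16.5, and all P14 values above those of P3. Mmp7 rose by 4.51 ± 0.35 on the log2 scale in the first step (limma adjusted p = 4.8e-10). The second, of 1.22 ± 0.35 (limma adjusted p = 0.031), was close to both thresholds, and without any 1 of the 4 libraries of that step its adjusted p was between 0.14 and 0.31. Its reads were whole in all 5 libraries in which it was above 0.

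Lyz1 (Entrez gene 17110, chr10:117287795-117292868, minus strand) rose in nearly equal steps. It was at 1.92 and 2.47 RPM at E16.5, 28.7 and 22.9 RPM at P3, and 199.9 and 302 RPM at P14, with no overlap between ages. The log2 differences were 3.06 ± 0.26 (limma adjusted p = 2.5e-09) and 3.21 ± 0.26 (limma adjusted p = 1.0e-08). Lyz2, the lysozyme of macrophages and the closest copy of Lyz1, was 86.5% identical over the last 100 bases; it was at 0.769 and 0 RPM at E16.5, 0.448 and 0 RPM at P3, and 7.02 and 5.22 RPM at P14. Lyz1 was above Lyz2 in 6 of 6 intestinal libraries. Among myeloid markers, Mpo, S100a8 and S100a9 were listed at 0 in all 6 libraries, and the sum of 13 myeloid markers was 50.0 to 55.8 RPM at E16.5, 27.0 to 30.9 RPM at P3 and 19.4 to 36.5 RPM at P14. Csf1r made up most of that sum at E16.5, at 50.8 and 43.2 RPM. It was at 12.6 and 10.4 RPM at P3 and 12.5 and 3.64 RPM at P14, where other markers made up most of the sum. Cd68, a macrophage marker, went up with Lyz1 in the first step only, from 0.769 and 1.24 RPM at E16.5 to 9.42 and 8.08 RPM at P3. At P14 Cd68 was at 11.0 and 5.30 RPM, on either side of its P3 values. The 3 myeloid markers tested were Csf1r, Cd68 and Lyz2 itself, which reached 5 RPM only at P14. Over both steps 2 of them rose, Lyz2 included, and 1 fell. The part of myeloid cells in the rise of Lyz1 was not tested.

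Pla2g2a (Entrez gene 18780, chr4:138831857-138835189) is annotated as a transcribed pseudogene in RefSeq and as a polymorphic pseudogene in GENCODE, since the C57BL/6 strain carries a disrupted copy. It was at 0.385 RPM (1 read) and 0 at E16.5 and was listed at 0 in both P3 libraries. At P14 it was at 14.3 RPM in replicate 1 and 232 RPM in replicate 2, from 47.0 and 1399 reads. Both P14 libraries lay above all younger ones, but they differed 16.2-fold from each other, the largest replicate difference among 3325 genes with a P14 mean of at least 50 RPM. The rise was called (limma adjusted p = 8.4e-06), with no fold given against a group at 0. With a robust estimate of the spread, added after seeing the data, which lets a gene keep its own large variance, the adjusted p was 0.092. St3gal4, a sialyltransferase, and 1810030J14Rik came next in replicate difference, with 10.4 and 167 RPM and with 24.1 and 266 RPM, again higher in replicate 2.

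The 3 Reg3 lectins did not move together. Reg3a (Entrez gene 19694, chr6:78380709-78383839) was at 0.769 and 0.309 RPM at E16.5, 2 reads and 1 read, then at 2.69 and 3.03 RPM at P3 and at 30.2 and 56.1 RPM at P14. The ages did not overlap. Its first step of 1.34 ± 0.43 on the log2(RPM + 1) scale was called (limma adjusted p = 0.017), but the adjusted p was 0.14 with a pseudocount of 5 and 0.28 after quantile normalization. The second, 3.45 ± 0.43 (limma adjusted p = 7.4e-06), was called.

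Reg3b (Entrez gene 18489, chr6:78370885-78373466) had its highest library in the embryo, as did Reg3g. It was at 1009 and 178 RPM at E16.5, 62.3 and 53.3 RPM at P3, and 232 and 166 RPM at P14. Both P3 libraries lay below all others, whereas the P14 libraries lay on either side of the lower embryonic one. From E16.5 to P3 Reg3b fell by 2.86 ± 0.40 on the log2 scale (limma adjusted p = 5.1e-06), and from P3 to P14 it rose by 1.75 ± 0.40 (limma adjusted p = 0.0063).

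Reg3g (Entrez gene 19695, chr6:78466269-78468874, minus strand) took the same course, at 219 and 57.1 RPM at E16.5, 18.8 and 26.8 RPM at P3, and 157 and 152 RPM at P14. Again the P3 libraries were the lowest and the embryonic pair enclosed the P14 pair. It fell by 2.27 ± 0.34 (limma adjusted p = 1.2e-05) and then rose by 2.73 ± 0.34 (limma adjusted p = 7.3e-06).

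The embryonic replicates set the limits of both. They differed 5.66-fold in Reg3b and 3.84-fold in Reg3g, ranks 2 and 4 among 3387 genes with an E16.5 mean of at least 50 RPM. Rank 1 was Reg1, another lectin of the family, at 311 and 30.3 RPM, so that 3 Reg genes were all higher in the same E16.5 library. The standard limma fit gave Reg3b a spread of 0.40 on the log2 scale where its own replicates had 1.04, and Reg3g 0.34 where they had 0.81. The fitted spread was also the smaller for Pla2g2a (0.75 against 1.61), Mmp7 (0.35 against 0.57) and Defa24 (0.16 against 0.26). So it was for Defa-rs7, Defa20 and Lyz1, while it was the larger for Defa5 and Reg3a. The standard errors of all 10 genes rest on the fitted spread. With the robust estimate of the spread, the adjusted p of the fall was 0.13 for Reg3b and 0.12 for Reg3g, and that of the later rise 0.47 and 0.19. Without E16.5 replicate 1, the library with the high values, the falls were -1.61 for Reg3b and -1.31 for Reg3g. Without E16.5 replicate 2 they were -4.11 and -3.23, so that the size of the fall depended on the library. With 1 E16.5 library left, the spread of the embryonic pair cannot enter these fits, and they give no test of the fall. Between E16.5 and P14, Reg3b was lower by a log2 difference of -1.11 ± 0.40 (limma adjusted p = 0.032), and without E16.5 replicate 1 the difference was 0.14. Reg3g differed by 0.46 ± 0.34 (limma adjusted p = 0.31), and without that library by 1.42.

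The ends of Reg3a and Reg3b were 58.9% identical and those of Reg3g and Reg3a 57.9%, and most values were whole reads, in 6 of 6 libraries for Reg3a and 4 of 6 for both Reg3b and Reg3g.

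**Figure D3:**
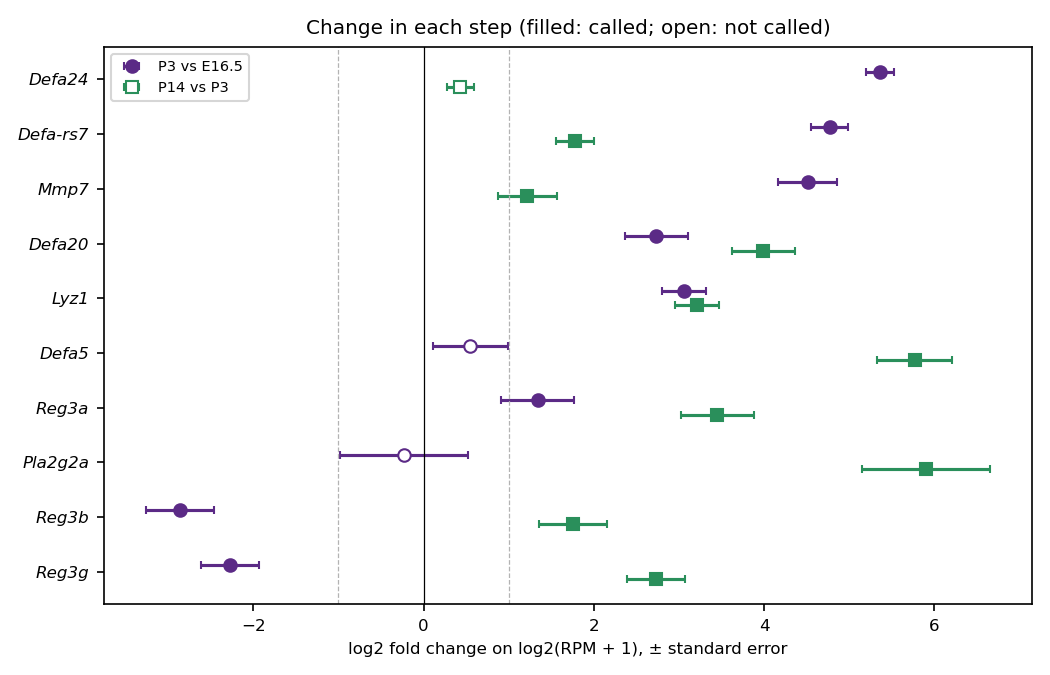
Log2 fold change of each gene on the log2(RPM + 1) scale from E16.5 to P3 (circles) and from P3 to P14 (squares), with bars of ± 1 standard error from limma; filled symbols were called, open ones not. Defa24, Defa-rs7 and Mmp7 had the larger first step, and Reg3b and Reg3g lay on opposite sides of 0 in the steps; the values of Defa5 in the first step and of Pla2g2a in both depend on the pseudocount.

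Whether the steps differed was tested as the second step minus the first, in the same limma fit, a contrast added after seeing the data. The steps share the P3 libraries. The second was smaller than the first for Defa24 (-4.93 ± 0.28, limma adjusted p = 1.1e-11), Defa-rs7 (-3.00 ± 0.38, limma adjusted p = 4.9e-06) and Mmp7 (-3.30 ± 0.61, limma adjusted p = 4.0e-04), as it was for 11.9% of all genes tested. It was larger for Reg3b (4.61 ± 0.70, limma adjusted p = 3.8e-05) and Reg3g (a step of 2.73 after one of -2.27, limma adjusted p = 1.6e-06), as for 7.68% of all genes. For Defa5, Reg3a and Pla2g2a, which passed the filter only through P14, the filter fixed the direction of the second step. It thereby favoured a larger second step without fixing it, and no test of the difference is given. The difference was not called for Lyz1 (0.15 ± 0.46, limma adjusted p = 0.86) or Defa20 (1.26 ± 0.64, limma adjusted p = 0.18). Defa-rs7, Mmp7, Lyz1 and Defa20 passed the filter only through the postnatal ages. For them the filter favoured a larger first step without fixing it, so their step differences are a description. With the robust estimate the adjusted p was 0.19 for Reg3b and 0.11 for Reg3g, and with no filter on low values it was 0.064 for Mmp7 and 0.091 for Reg3b.

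Of the other Paneth genes, 16 of 23 in the table could be tested: 12 rose and 1 fell by P3 (median log2 fold change 1.59), and 5 rose and 1 fell from P3 to P14 (median 0.35). Among all genes tested, 12.6% rose and 8.20% fell by P3, and 1.99% rose and 2.40% fell from P3 to P14. The 5 that rose in the second step were Itln1, Lyz2, Gm14851, Gm15284 and AY761184. Of these, Lyz2 and AY761184 reached 5 RPM only at P14, so that their rise was fixed by the filter. Itln1 and others that rose by P3 did not reach 5 RPM in an E16.5 library, which tied that rise to the filter. Ang4, an angiogenin of Paneth and goblet cells, was at 4.62 and 1.54 RPM at E16.5, 57.5 and 62.5 RPM at P3, and 15.5 and 25.7 RPM at P14. It rose by 4.01 ± 0.35 (limma adjusted p = 3.2e-09) and then fell by 1.54 ± 0.35 (limma adjusted p = 0.0054), a pair of calls that none of the 10 had. Itln1, a lectin of Paneth and goblet cells, was listed at 0 in both E16.5 libraries and stood at 38.1 and 21.9 RPM at P3 and 106 and 172 RPM at P14. The gene that fell by P3 was Guca2b (log2 fold change -1.48, limma adjusted p = 6.4e-06), which encodes uroguanylin, a hormone of enterocytes.

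Of 18 tested regulators of the Paneth and secretory lineages, 11 rose and 0 fell by P3 (median log2 fold change 1.35), and 1 rose and 0 fell from P3 to P14 (median 0.18). The shares of all genes tested were 12.6% and 8.20% by P3 and 1.99% and 2.40% from P3 to P14. Sox9, which Paneth cells need to form, went from 10.4 and 18.8 RPM to 141 and 144 RPM, then 101 and 85.9 RPM. It rose by 3.25 ± 0.22 (limma adjusted p = 4.7e-11) and was not called in the second step (-0.61 ± 0.22, limma adjusted p = 0.1). Atoh1, the factor that commits cells to the secretory lineage, rose by 2.68 ± 0.35 (limma adjusted p = 1.6e-06), and Spdef, a factor for secretory cell maturation, by 2.26 ± 0.28 (limma adjusted p = 8.2e-07). The gene that rose in the second step was Creb3l1 (1.33, limma adjusted p = 0.0029), a factor of the secretory pathway. Several others were higher at P14 than at P3 without being called. Atoh1 was at 16.1 and 13.8 RPM and then 26.2 and 29.1 RPM (0.85 ± 0.35, limma adjusted p = 0.16), and Spdef at 25.1 and 26.9 RPM and then 50.3 and 40.7 RPM (0.78 ± 0.28, limma adjusted p = 0.093). Agr2, a chaperone of secretory cells, differed by 0.94 ± 0.15 (limma adjusted p = 2.0e-04) and missed only the fold threshold. The P3 and P14 libraries of these 3 did not overlap.

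Of 8 tested genes among the other Reg and antimicrobial genes of the epithelium (67 in the table, beta-defensins included), 5 rose and 1 fell by P3 and 3 rose and 0 fell from P3 to P14. For all genes the shares were 12.6% and 8.20% by P3 and 1.99% and 2.40% from P3 to P14. Zg16, a lectin of goblet cells that binds Gram-positive bacteria, was at 11.7 and 8.41 RPM at P3 and 133 and 376 RPM at P14, a rise of 4.36 ± 0.36 (limma adjusted p = 1.0e-08). Pigr, the receptor that carries IgA across the epithelium, rose by 3.94 ± 0.25 (limma adjusted p = 8.6e-12) and then by 1.05 ± 0.25 (limma adjusted p = 0.007). Reg1 was at 287 and 93.2 RPM at P3 and 236 and 281 RPM at P14, and was not called in any comparison.

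Of the genes known to act upstream of the Reg3 lectins (interleukin 22 and 17 receptors, Stat3, Toll-like receptors and their adaptors), 17 of 22 were tested; 2 rose and 2 fell by P3, and 0 rose and 0 fell from P3 to P14. These shares are near those of all genes, of which 12.6% rose and 8.20% fell by P3 and 4.40% were called either way from P3 to P14. The receptor Il22ra1 differed by -0.67 (limma adjusted p = 0.47) and Stat3 by 0.08 (limma adjusted p = 0.9) in that step. By P3, Il18, an epithelial cytokine, fell by 2.13 ± 0.24 (limma adjusted p = 1.6e-07). Tlr5, the flagellin receptor, was at 11.5 and 14.5 RPM at E16.5 and 5.83 and 3.37 RPM at P3, a fall of 1.35 ± 0.46 (limma adjusted p = 0.024).

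In the families of the 2 enzymes, 11 of 42 phospholipase A2 and matrix metalloproteinase genes were tested, Pla2g2a and Mmp7 included. From P3 to P14, 2 rose and 0 fell, and these were Pla2g2a and Mmp7 themselves. By P3, 4 rose, among them Mmp7 and Mmp14 (1.64 ± 0.27, limma adjusted p = 4.4e-05), and 2 fell. Beside these, 1.99% of all genes rose and 2.40% fell from P3 to P14, and 12.6% rose and 8.20% fell by P3.

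Markers of other cells moved over the same ages. The summed RPM of 7 goblet markers was 308 to 354 at E16.5, 2113 to 2231 at P3 and 3009 to 3949 at P14. That of 4 crypt stem cell markers was 25.7 to 30.0, 1924 to 2199 and 2004 to 2840, and that of 6 enteroendocrine markers 56.5 to 90.0, 4701 to 6911 and 1490 to 2854. The part of these cell types in the changes of the 10 genes was not tested. Reg and phospholipase genes are also made in the pancreas; Cpa1, Pnlip, Amy2a5, Try5 and Prss2, defining genes of acinar cells, were listed at 0 in all 6 libraries, and 16 acinar markers together came to 7.34 to 12.4 RPM at E16.5, 28.2 to 46.9 RPM at P3 and at most 22.7 RPM at P14. The 2 acinar markers that could be tested, Ctrb1 (0 and 0.926 RPM at E16.5, 12.6 and 27.9 RPM at P3, 2.44 and 2.48 RPM at P14) and Cela1 (4.23 and 6.18 RPM at E16.5, 11.2 and 13.5 RPM at P3, 6.71 and 12.1 RPM at P14), both rose by P3, and 1 fell from P3 to P14. Their part in the changes was not tested. Markers of T and NK cells summed to at most 1.37 RPM. The 5 B cell markers summed to 16.9 RPM in E16.5 replicate 1, the library with the higher Reg genes, and 3.40 RPM in replicate 2, and to between 5.38 and 10.4 RPM later. The 10 markers of mesenchyme and endothelium came to 17.1 to 49.8 RPM at E16.5, 7.36 to 14.7 RPM at P3 and 10.6 to 19.4 RPM at P14, with the lower embryonic value in replicate 1. The 4 proliferation markers came to 192 to 195 RPM at E16.5, 489 to 674 RPM at P3 and 591 to 607 RPM at P14. The part of these cells in the results was not tested.

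**Figure D4:**
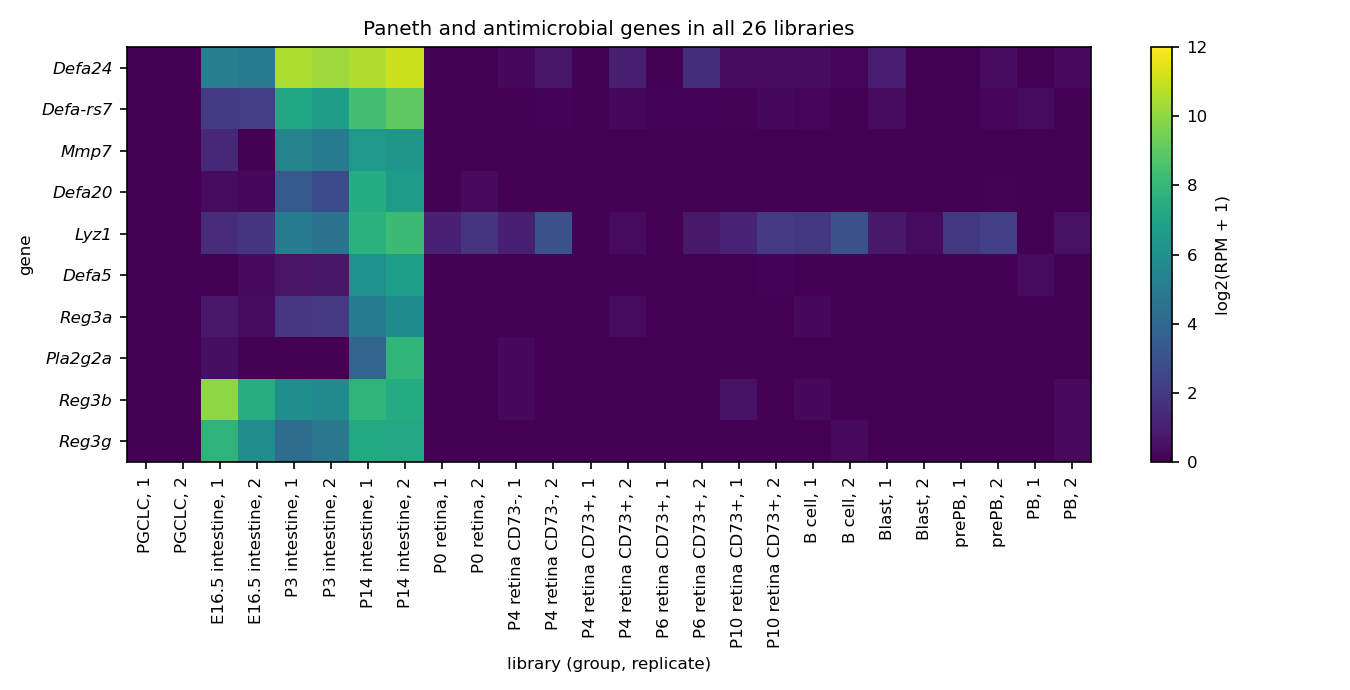
Level of the 10 genes (rows) in all 26 libraries (columns, group and replicate), as log2(RPM + 1) in colour. All rows are bright in the P14 intestine, and outside the intestine Lyz1 alone exceeded 2 RPM, reaching 6.94 RPM in a retinal library.

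Outside the intestine the 10 genes were near the level of single reads, which gives the background of the table. Mmp7 was listed at 0 in 20 of 20 such libraries, Pla2g2a in 19, and Defa5, Defa20, Reg3a and Reg3g in 18 each, with no value above 0.284 RPM among them. Reg3b was listed at 0 in 16 and reached 0.519 RPM. Defa24 and Defa-rs7 were each above 0 in 11 of the 20, but the highest was 1.93 RPM for Defa24, from 5.0 reads in a retinal library. Lyz1 was the exception, above 0 in 15 of 20 and at 6.94 RPM in the P4 CD73-negative retina (replicate 2) and 6.86 RPM in resting B cells (replicate 2). Lyz2 was at 13.5 and 18.7 RPM in those libraries; it exceeded Lyz1 in 15 of the 20 and equalled it in the other 5.

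The mean levels over groups put P14 intestine first for 9 of the 10 genes and E16.5 intestine first for Reg3b, at 594 ± 588 RPM (SD, n = 2), a spread that covers the P14 mean of 199 ± 46.9 RPM. For Reg3g, P14 (154 ± 3.37 RPM) and E16.5 (138 ± 115 RPM) were likewise within the spread of the embryonic pair. Over the 13 group means, with 14130 genes compared, the genes most like Lyz1 were Ces2g, an intestinal carboxylesterase (Pearson r = 0.9433), the defensin Defa2 (0.9325), LOC100505096, Gm15292 and the defensin Defa26 (0.9311). Those most like Reg3g were Ugt2a3 (0.9995), Sh2d4a, Cyp4f40, Ptprh and 2010106E10Rik (0.9962). These correlations describe 13 points in which 3 intestinal groups stand against groups near 0, and each gene shares its libraries with the other.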

How the data were processed

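RNA of sorted mouse cells was read by 3' RNA-seq. Per the submitters' processing notes, the authors used cutadapt 1.11, TopHat 1.4.1, Bowtie 1.0.1 and Cufflinks 2.2.0 with the mm10 build, and they deposited 1 table of signal values in RPM, reads scaled to library depth, not counts. No source used here says how reads matching several genes were divided. Of 26310 lines, 1164 (4.42%) without 26 filled values were left out. The RPM of 1 read was taken as the commonest small value of each library. Between 82.9% and 91.3% of low values (up to 20.5 reads) were whole multiples of it, too few for a count test, so depths of 1.72 to 6.04 M reads are estimates. They limit precision through counting error only; a count of 3 reads, 0.497 to 1.35 RPM in the intestinal libraries, was taken as the floor.

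The 6 intestinal libraries were fitted with limma 3.58.1 (R 4.3.3, trend, two-sided) on log2(RPM + 1), after keeping genes at or above 5 RPM in 2 or more libraries. P-values were adjusted by Benjamini-Hochberg over all genes tested, and the script was tested on simulated data. A fold change on this scale understates that of low genes. Replicate numbers were not used as a block. Alternatives changed the pseudocount, filter, normalization, samples, block, spread estimate and each library in turn.

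The 10 genes and the gene lists were chosen with earlier results of these data known. From each list, at most 6 called genes with the largest change could be named. Guca2b, Creb3l1, Il22ra1, Stat3, Reg1, Defa2, Defa22, Defa25, Defa26, St3gal4 and 1810030J14Rik fall outside that rule or were named after their values were seen, or as nearest copies. Genes were matched to RefSeq GRCm38.p6, the build family of mm10, by Entrez ID (10 of 10).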

Additional observations from a re-analysis of the deposited data

Results flagged for a closer look

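Outside the intestinal comparisons, which are the only ones that used these genes, Lyz1 reached 6.94 RPM (37.0 reads) in the P4 CD73-negative retina, replicate 2, where Lyz2 was at 13.5 RPM. Replicate 1 of that group had 1.07 RPM of Lyz1 and 3.22 RPM of Lyz2. Defa24 reached 1.93 RPM (5.0 reads) in the P6 CD73-positive retina, replicate 2, where the 13 Defa genes together came to 3.10 RPM. Both values are above the level of 3 reads. The study has no control samples for them, and their origin was not tested.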

How the results depend on the processing

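Depth limits the low end: Defa5 before P14, Pla2g2a before P14, and Defa20, Mmp7 and Reg3a at E16.5 rested on 4 reads or fewer in each library. With 2 libraries a group, single libraries decide several values. Numbers of genes that rose by P3 went from 1321 to 861 with a pseudocount of 5. Those that rose from P3 to P14 went from 209 to 72 with no filter on low values, and to between 101 and 211 when 1 library was left out. Those that fell went from 252 to 157 with a pseudocount of 5 and 71 with no filter, and to between 128 and 281 when 1 library was left out; the rise was lowest without P14 replicate 1, and the fall without P3 replicate 1, with 136 without P3 replicate 2. Of the 10 genes, the 9 that rose from P3 to P14 became 5 with no filter and between 4 (without P14 replicate 1; 5 without P14 replicate 2) and 9 when 1 library was left out. The 8 that rose over both steps became between 5 (without either P14 replicate) and 9. Without either P14 library, Defa5, Reg3a and Pla2g2a did not pass the filter and gave no value. The 2 that fell by P3, Reg3b and Reg3g, became 0 with the robust spread estimate. The 1 that fell over both steps, Reg3b, became 0 with no filter, a filter of 1 RPM, median-of-ratios scaling, quantile normalization, all 26 libraries in 1 fit and the robust estimate, and was between 0 and 1 when 1 library was left out; its log2 difference was then between -2.36 and 0.14, turning without E16.5 replicate 1. The causes were not tested. The rise of Reg3a by P3 was also lost without E16.5 replicate 2 (adjusted p = 0.092) and without P3 replicate 1 (0.058) or 2 (0.083). That of Mmp7 from P3 to P14 was lost with a pseudocount of 0.5 (0.098) and no filter (0.27). That of Reg3b was lost with no filter (0.34) and without P3 replicate 1 (0.11), P3 replicate 2 (0.18) or P14 replicate 1 (0.17), and with no filter those of Reg3g (0.096) and Pla2g2a (0.085). The difference between the steps was called for Defa20 with a pseudocount of 5 (2.23) and quantile normalization (2.06). The difference between replicates 1 and 2 was correlated between ages over 10481 genes. The values were 0.04 (E16.5 and P3), -0.05 (E16.5 and P14) and -0.05 (P3 and P14). They show no shared replicate effect but cannot exclude that the samples were paired. With the replicate block, 6 of the 10 genes rose and 2 fell by P3, and 9 and 0 did from P3 to P14. The block ended no call of the 10 genes in the 3 comparisons. The robust estimate, the summed defensins and the step difference were chosen after seeing the data. Calls of Defa24, Defa-rs7, Defa20 and Lyz1 in the 3 comparisons stayed on the same side of the threshold in all alternatives run.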
